A study of Mus musculus with 2 samples.

Results

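Splenic effector CD8 T cells were taken here as cell barcodes of the first deposited run that held UMIs of *Cd3e* and *Cd8b1* and at least 3 UMIs of *Gzma* and *Gzmb* together. A UMI (unique molecular identifier) stands for 1 captured transcript. Barcodes were kept with fewer than 3 UMIs of *Xcl1*, *Ifng* and *Tnfrsf9* together, none of *Cd79a* or *Csf1r*, at most 1 of *Lyz2* and fewer than 5 of *Mzb1*. The rule took 670 of 23397 barcodes, 378 of the 14821 from PEP-WT mice and 292 of the 8576 from PEP-619WW mice. The members were selected on the measured UMIs of these genes, so the values of these genes are given as description only.

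PEP-WT mice were C57BL/6 mice with the wild type *Ptpn22* gene, which codes for the tyrosine phosphatase PEP. In PEP-619WW mice, also C57BL/6, CRISPR/Cas9 had been used to place the murine counterpart of an autoimmunity-linked human allele in this gene. All mice were infected with LCMV-cl13, a lymphocytic choriomeningitis virus strain that persists in wild type C57BL/6 mice, and spleens were removed on day 8. The study reports that PEP-619WW mice later cleared it from serum. On day 8 it found viral protein in a smaller share of their monocytes, marginal zone macrophages and plasmacytoid dendritic cells. In conventional dendritic cells it found no significant difference. Within each genotype the splenocytes of 4 to 5 mice were combined before live CD45+ cells were sorted, so each genotype is represented by 1 library and no difference between mice can be measured. The mutation is in every cell of these mice, so that effects within CD8 T cells and effects of other cells on them cannot be told apart. The sample labels name liver, the human Jurkat line and tumor infiltrating cells, and they hold a peptide stimulation protocol without saying whether the sequenced cells went through it. The descriptions of the experiment name splenocytes. Mice were matched for age and sex between the genotypes, and an age is given only as a range over all mice of the study. Each genotype has a second deposited run. The barcode numbers and median genes per barcode in the study's quality summary are those of that second run, and not those of the first run, from which the cells described here come.

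Effector CD8 T cells arise when naive CD8 T cells meet viral antigen in lymphoid tissue and divide. They carry granules with perforin and granzymes that kill infected cells, and they enter the blood and inflamed tissue by means of chemokine receptors. Some later become long-lived memory cells, whereas cells high in *Klrg1* and *Cx3cr1* are usually described as short-lived, and under lasting antigen many take on inhibitory receptors. PEP dephosphorylates kinases near the T cell receptor and dampens its signal.

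The first run held 77916082 UMIs for PEP-WT and 56745578 for PEP-619WW, with medians of 2832 and 3293 UMIs per barcode. Member barcodes were deeper in PEP-619WW, with a median of 6390.5 UMIs and 2159 genes against 4255.5 UMIs and 1623.5 genes in PEP-WT. The same held for all barcodes with *Cd3e* and *Cd8b1*, whose medians were 8660 and 6038 UMIs. The mitochondrial share had a median of 3.22% in PEP-619WW members and 2.39% in PEP-WT members. Both libraries had 39 barcode sequences in common, and 0 of these were members. No doublet caller was run, and leaving out the deepest members served as the check on doublets.

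Members made up 2.55% of PEP-WT barcodes (exact binomial 95% interval 2.30 to 2.82) against 3.40% for PEP-619WW (3.03 to 3.81). The difference was 0.854 percentage points (Newcombe 95% interval 0.404 to 1.33). These intervals, like all others given here, cover counting error only. Among barcodes with both *Cd3e* and *Cd8b1*, 26.3% of 1439 were members in PEP-WT (24.0 to 28.6) and 30.6% of 953 in PEP-619WW (27.7 to 33.7). The direction of the difference over all barcodes was not firm. With the deeper library thinned to the depth of the other, the difference was 0.819 percentage points (0.370 to 1.29). Among barcodes with at least 2000 UMIs, each thinned to 2000 before the rule, it was 0.518 (0.0443 to 1.02). It turned to -0.0814 percentage points (-0.230 to 0.0843) once members with any mitosis UMI were left out (57 and 26 remained). It turned to -0.224 (-0.446 to 0.0138) once members with a defining marker of another cell type were left out (130 and 56 remained). Only members were left out, and the shares were still taken over all barcodes of each library. They are therefore not shares among the remaining barcodes. Both intervals of the settings that left members out included equal shares. Mitosis UMIs were counted at full depth here, and members were deeper in PEP-619WW. With members thinned at random to equal depth, 74.1% held a mitosis UMI in PEP-WT and 66.8% in PEP-619WW. The part of depth in these turns was not tested. Shares of sorted splenocytes also depend on how many other cells each library held.

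The label was checked against *Cd8b1*, *Gzma*, *Gzmb* and *Cxcr6*, of which only *Cxcr6*, a chemokine receptor of tissue-homing T cells, was not used by the rule. It was detected in 52.6% of PEP-WT and 58.9% of PEP-619WW members. Its level was 221 CPM (UMIs per 1000000 UMIs, summed over all members) in PEP-WT and 237 CPM in PEP-619WW, against 8.34 and 8.90 CPM in naive-like CD8 T cells of the same libraries. The naive-like barcodes (195 for PEP-WT, 38 for PEP-619WW) held no granzyme A or B UMI and at least 2 UMIs of a naive T cell gene set that includes *Ccr7* and *Lef1*. The chemokine gene *Ccl5*, which the rule did not use, stood at 17412 and 16454 CPM in members against 720 and 1603 CPM in naive-like cells. *Nkg7*, a granule membrane gene, stood at 2474 and 1879 CPM against 722 and 619 CPM. *Ccr7*, a lymph node homing receptor, was 29.1-fold lower in members than in naive-like cells of PEP-WT and 23.5-fold lower in PEP-619WW. *Tcf7*, a transcription factor of naive and memory T cells, was 19.6-fold and 14.8-fold lower. These contrasts carry no test, because granzyme and homing genes chose the cells on both sides. Of the named markers, *Cd8b1* and the granzymes were present by the rule, and *Cxcr6* was detected in both libraries.

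Most members lay clear of the granzyme limit. A granzyme sum of exactly 3, just inside, was found in 25 PEP-WT and 18 PEP-619WW members, and 29 and 25 otherwise eligible barcodes had a sum of 2, just outside. A summed *Xcl1*, *Ifng* and *Tnfrsf9* count of 2 was found in 52 and 39 members, and 37 and 36 barcodes had a count of 3. At least 10 granzyme UMIs were held by 237 PEP-WT members and 188 PEP-619WW members.

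Genes typical of other cell types were read in both member sets, above all hemoglobin and immunoglobulin genes. The B cell list (7 genes) summed to 40.4 CPM in PEP-WT and 30.3 CPM in PEP-619WW, with *Cd79a* at 0 by the rule and *Pax5* at 0 in PEP-WT. The plasma cell list (4 genes) summed to 72.3 and 83.9 CPM, the myeloid list (9 genes, *Csf1r* at 0 by the rule) to 123 and 85.3 CPM, and the neutrophil list (6 genes, *Ly6g* at 0 in PEP-WT) to 138 and 222 CPM. The CD4 list (3 genes) summed to 4.99 and 5.13 CPM. The gamma delta T cell list (3 genes) summed to 8.48 and 4.66 CPM, with *Trdv4* at 0 in both. The NK cell list (5 genes) summed to 175 and 128 CPM, with *Ncr1* at 0 in PEP-619WW. One list stood far apart. The erythroid list (7 genes) summed to 3813 CPM in PEP-WT and 97.4 CPM in PEP-619WW, with *Alas2* at 0 in PEP-619WW. Of the *Hbb-bs* UMIs of PEP-WT members, 94.5% lay in 10 barcodes, yet a *Hbb-bs* UMI was also seen in 47.1% of PEP-WT members and 11.6% of PEP-619WW members. With every barcode thinned at random to 2000 UMIs, these shares were 25.9% and 5.88%, next to 34.1% and 6.40% of B cells, which do not make hemoglobin. The immunoglobulin list summed to 1323 and 1547 CPM, more than *Cd8b1* at 882 and 843 CPM, and an *Igkc* UMI was found in 93.4% of PEP-WT and 98.3% of PEP-619WW members. The 4 MHC class II genes summed to 492 and 212 CPM.

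The question put to these cells was which genes stood at different levels in PEP-619WW and PEP-WT effector CD8 T cells on day 8. UMIs of all members of a library were summed, and 2815 genes with at least 200 UMIs over both libraries were compared. With 1 library per genotype there is no test, and a gene was counted as apart when its CPM differed 1.5-fold or more. By this measure 52 genes were higher in PEP-619WW, 1.85% of the genes compared, and 82 were lower, 2.91%. The median log2 ratio of PEP-619WW over PEP-WT over all genes compared was 0.00, and 90% of genes lay between -0.47 and 0.44. The members of the 2 genotypes thus had closely similar transcript levels for most genes, with a limited set that stood apart. Among the 82 lower genes were 4 hemoglobin and 4 MHC class II genes.

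**Figure D1:**
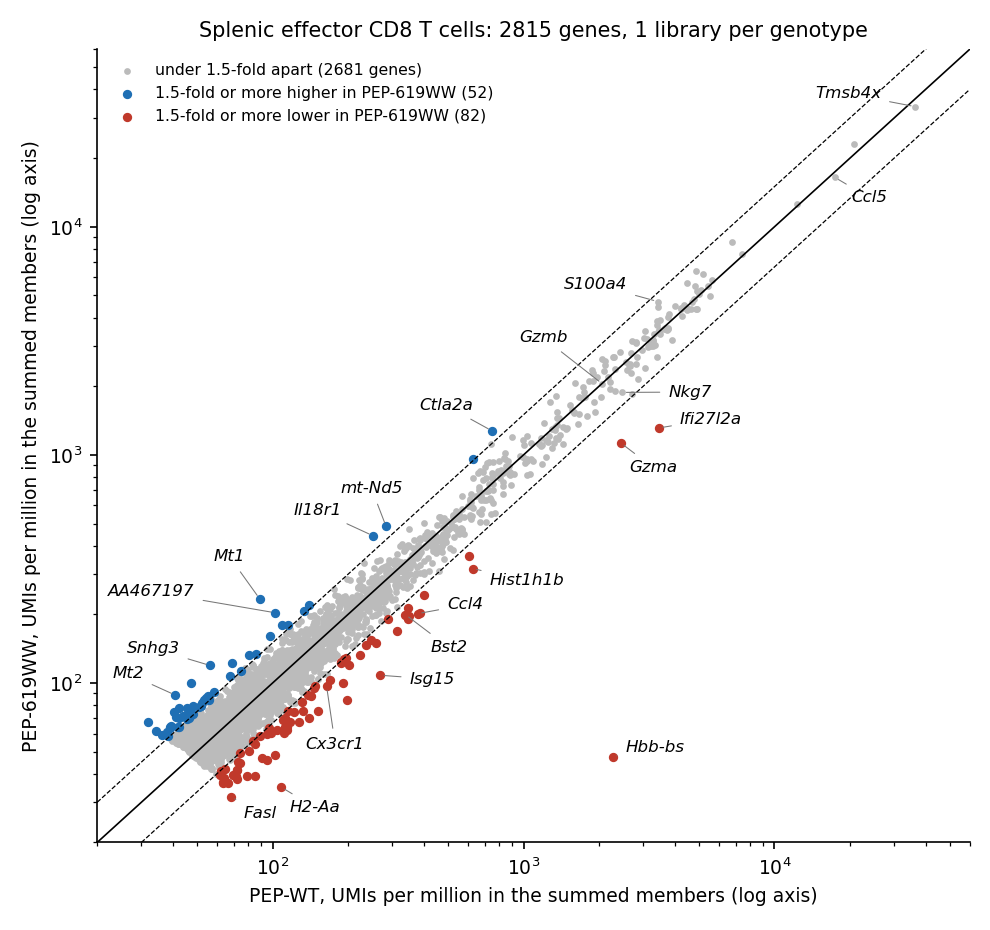
CPM of 2815 genes in the summed effector CD8 T cells of PEP-WT (x axis) and PEP-619WW (y axis), both on log axes, 1 point per gene. The solid line marks equal levels and the dashed lines 1.5-fold. Points in blue (52 genes, among them *Mt1*, *Il18r1* and *Ctla2a*) were higher and points in red (82 genes, among them *Ifi27l2a*, *Isg15*, *Gzma* and *Hbb-bs*) were lower in PEP-619WW.

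The 2 granzymes that chose the members differed from each other. *Gzmb*, which codes for granzyme B and triggers death of target cells, stood at 2058 CPM in PEP-WT and 2050 CPM in PEP-619WW. *Gzma*, which codes for the tryptase granzyme A, stood at 2442 CPM in PEP-WT and 1128 CPM in PEP-619WW, a log2 ratio of -1.12 (95% counting interval -1.19 to -1.04). A *Gzma* UMI was found in 57.9% of PEP-WT members and 41.8% of PEP-619WW members. At 2000 UMIs per barcode the shares were 51.0% and 32.2%, and 1.24% and 0.846% of B cells also held one. Few barcodes carried much of the *Gzma* signal, since the 10 richest held 23.1% of its UMIs in PEP-WT and 46.2% in PEP-619WW. As both granzymes served to choose the cells, these values describe the members. Without members that held a mitosis UMI (57 and 26 left) the log2 ratio of *Gzma* was -0.37. Among the 222 and 216 members with fewer than 3 mitosis UMIs at 2000 UMIs per barcode it was -1.42. Members without any *Gzma* UMI, which the rule took for *Gzmb* alone, numbered 159 in PEP-WT (42.1%) and 170 in PEP-619WW (58.2%). Outside these members, *Gzma* was also lower in cytokine-expressing CD8 T cells, the barcodes with at least 3 UMIs of *Xcl1*, *Ifng* and *Tnfrsf9* (182 and 180), at 695 and 401 CPM. In NK cells (60 and 32 barcodes) it was not lower, at 15015 CPM in PEP-WT and 17030 CPM in PEP-619WW.

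Most other killing genes were less than 1.5-fold apart between the 2 libraries. Of 13 cytotoxic granule and killing genes compared, 0 were higher and 2 were lower in PEP-619WW, beside 1.85% and 2.91% of all 2815 genes. The median log2 ratio of the list was 0.02 (-0.21 without members that held a mitosis UMI). *Prf1*, the pore-forming perforin, stood at 238 CPM in PEP-WT and 241 CPM in PEP-619WW (log2 ratio 0.02, -0.16 to 0.20). *Srgn*, the proteoglycan core of cytotoxic granules, stood at 842 and 1022 CPM (0.28), and *Ctsw*, a granule protease, at 382 and 389 CPM (0.03). *Nkg7*, the granule membrane gene, stood at 2474 and 1879 CPM (-0.40), short of 1.5-fold. Its ratio was below 1 in all 14 alternative settings, with log2 ratios of -0.58 to -0.29. The 2 genes lower by 1.5-fold or more were *Fasl*, the ligand of the death receptor Fas, and *Gzmk*, a further granzyme. *Fasl* stood at 68.3 CPM in PEP-WT and 31.7 CPM in PEP-619WW (-1.11, -1.55 to -0.68). *Gzmk* stood at 192 and 128 CPM (-0.59, -0.82 to -0.36), and its ratio turned to 0.44 without members that held a mitosis UMI (57 and 26 left). A *Fasl* UMI was held by 15.2% of PEP-WT members (11.6 to 19.3) and 5.54% of PEP-619WW members (3.20 to 8.84) at 2000 UMIs, with B cells at 0.0827% and 0.211%, and by 28.0% and 17.5% unthinned. In cytokine-expressing CD8 T cells *Fasl* lay the other way, at 25.4 and 49.9 CPM, and without the limit on *Xcl1*, *Ifng* and *Tnfrsf9* its log2 ratio was -0.28.

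Metallothioneins, small proteins that bind zinc and copper, were among the genes highest in PEP-619WW. *Mt1* stood at 88.8 CPM in PEP-WT members (76.2 to 103) and at 234 CPM in PEP-619WW (214 to 255), a log2 ratio of 1.40 (1.15 to 1.65). *Mt2* stood at 40.9 CPM in PEP-WT members (32.5 to 50.8) and at 88.6 CPM in PEP-619WW (76.4 to 102), a log2 ratio of 1.11 (0.73 to 1.51). Without members that held a defining marker of another cell type (130 and 56 left) the log2 ratio of *Mt1* was 0.46. Both genes were also spread over more members. At 2000 UMIs, *Mt1* was detected in 11.02% of PEP-WT members (7.99 to 14.7) and 28.4% of PEP-619WW members (23.2 to 33.9), against 0.993% and 1.27% of B cells. Unthinned, the shares were 20.1% and 52.7%. The 10 richest barcodes held 39.9% of *Mt1* UMIs in PEP-WT and 36.3% in PEP-619WW. In every gate examined *Mt1* was higher in PEP-619WW, with log2 ratios of 0.61 in cytokine-expressing CD8 T cells, 1.61 in naive-like CD8 T cells, 2.82 in NK cells and 0.52 in B cells, although the NK and naive-like values rest on few UMIs.

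Metallothionein genes are known targets of the zinc-sensing factor MTF1, which binds the metal response element. The stretch of 250 bases before the annotated start of *Mt2* is shown because it holds 3 matches to that element, searched as TGCACNC or TGCGCNC on both strands and set in capitals (RefSeq, GRCm38.p6, chr8:94172368-94172617, plus strand). Windows from 250 bases before to 50 bases after a start were examined for 32851 starts of 27025 genes, and 28.2% of genes held such a match, so these letters alone are common. Both *Mt1* and *Mt2* held one.
Mt2: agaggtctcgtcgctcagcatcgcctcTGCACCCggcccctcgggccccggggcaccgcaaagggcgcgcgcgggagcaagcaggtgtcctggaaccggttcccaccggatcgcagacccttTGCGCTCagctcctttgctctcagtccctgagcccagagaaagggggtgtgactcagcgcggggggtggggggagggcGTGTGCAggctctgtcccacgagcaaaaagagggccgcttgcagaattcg

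The 12 genes highest in PEP-619WW also included *Il18r1*, the ligand-binding chain of the receptor for the inflammatory cytokine IL-18. It stood at 251 CPM in PEP-WT members (229 to 274) and at 442 CPM in PEP-619WW (415 to 471), a log2 ratio of 0.82 (0.66 to 0.98). *Il18rap*, the accessory chain, stood at 199 CPM in PEP-WT and 286 CPM in PEP-619WW, a log2 ratio of 0.53 (0.34 to 0.71) that fell short of 1.5-fold. The *Il18r1* difference was spread over the members and not carried by a few, since the 10 richest barcodes held 12.1% of its UMIs in PEP-WT and 12.3% in PEP-619WW. The median member held 1 *Il18r1* UMI in PEP-WT and 3 in PEP-619WW. At 2000 UMIs it was detected in 36.6% (31.7 to 41.8) and 56.4% (50.5 to 62.2) of members, with B cells at 0.689% and 1.32%, and unthinned in 59.3% and 89.0%. The same direction was seen in the other gates, with log2 ratios of 0.87 in cytokine-expressing CD8 T cells, 0.74 in naive-like CD8 T cells and 1.44 in NK cells.

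Further genes among the highest in PEP-619WW had varied roles. *Ctla2a*, an inhibitor of cathepsin L, stood at 748 CPM in PEP-WT and 1275 CPM in PEP-619WW (log2 ratio 0.77, 0.68 to 0.86), with a detected share at 2000 UMIs of 60.1% and 76.8% (B cells 2.04% and 2.06%). Its log2 ratio was 0.26 without members that held a mitosis UMI (57 and 26 left). Among members with fewer than 3 mitosis UMIs at 2000 UMIs per barcode it was 0.48. *Furin*, a protease that processes precursor proteins, stood at 31.9 and 67.1 CPM (1.07, 0.64 to 1.52). *Slc6a6*, the taurine transporter, stood at 40.4 and 74.6 CPM (0.88, 0.49 to 1.29). *Ctla2a*, *Furin* and *Slc6a6* stayed at least 1.5-fold higher with the deeper library thinned. Their direction in that setting was a condition of being named and is no check. *Slc6a6* had a log2 ratio of -0.01 once members with an MHC class II UMI were left out. *Ahnak*, a large scaffold protein of activated T cells, stood at 630 and 964 CPM (0.61, 0.51 to 0.72), and its ratio fell short of 1.5-fold in 6 of 14 alternative settings. *Snhg3*, a host of small nucleolar RNAs, stood at 56.4 and 119 CPM (1.08, 0.76 to 1.41), while its log2 ratios in the other gates were 0.07 to 0.35. *AA467197*, a small gene, stood at 102 and 203 CPM (0.99, 0.75 to 1.24), and at 51.4 and 117 CPM in cytokine-expressing CD8 T cells. The mitochondrially encoded *mt-Nd5*, a subunit of respiratory complex I, stood at 283 and 486 CPM (0.78, 0.63 to 0.93), beside the higher mitochondrial share of PEP-619WW members. *Tecpr1*, an autophagy gene, stood at 68.8 and 122 CPM (0.83), and the gene model *Gm47283* at 47.4 and 100.2 CPM (1.08). *Ccr2*, a chemokine receptor, stood at 140 and 219 CPM (0.65, 0.43 to 0.87), and *Bcl2l11*, which codes for the death-promoting protein BIM, at 80.3 and 133 CPM (0.73, 0.44 to 1.01). Both fell short of 1.5-fold without members that held a mitosis UMI (57 and 26 left). The log2 ratios there were 0.057 for *Ccr2* and 0.13 for *Bcl2l11*. Members with fewer than 3 mitosis UMIs at 2000 UMIs per barcode numbered 222 and 216. In them the log2 ratios were 0.26 (-0.02 to 0.53) for *Ccr2* and 0.47 (0.12 to 0.83) for *Bcl2l11*. *Ccr2* reached 1.5-fold in only 7 of 14 alternative settings.

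**Figure D2:**
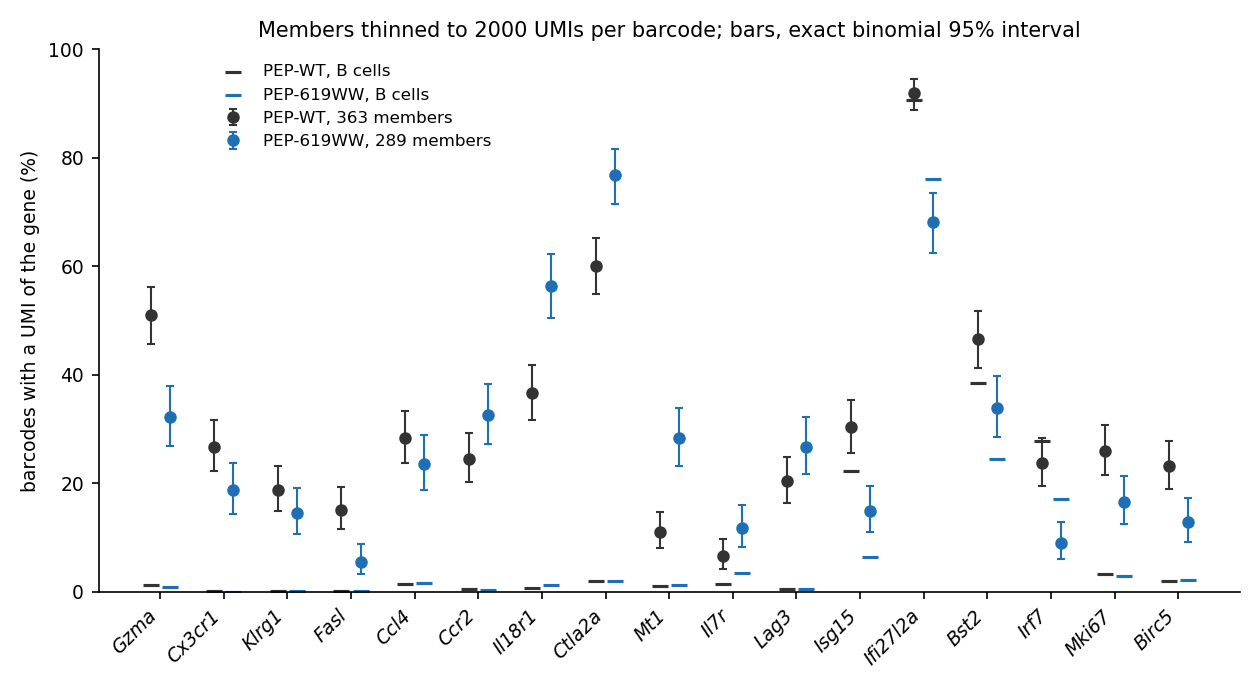
Percent of member barcodes with a UMI of each gene after every barcode was thinned at random to 2000 UMIs, for 363 PEP-WT members (dark) and 289 PEP-619WW members (blue), with exact binomial 95% intervals. The short horizontal marks give the same share in B cells of each library. *Il18r1*, *Ctla2a* and *Mt1* were detected in more PEP-619WW members, *Gzma*, *Fasl*, *Isg15*, *Ifi27l2a* and *Irf7* in fewer, and B cells also held the interferon stimulated genes.

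Interferon stimulated genes, which type I interferon switches on, were among the genes lowest in PEP-619WW, beside hemoglobin and MHC class II genes. Of the 26 such genes compared, 0 were higher and 9 were lower in PEP-619WW, beside 1.85% and 2.91% of all 2815 genes. A ratio below 1 was found for 24, with a median log2 ratio of -0.43 beside 0.00 for all genes. *Ifi27l2a*, whose product is a small membrane protein of the interferon response, stood at 3462 CPM in PEP-WT members (3381 to 3544) and at 1312 CPM in PEP-619WW (1264 to 1361). Its log2 ratio was -1.40 (-1.46 to -1.34). *Isg15*, a ubiquitin-like modifier, stood at 268 CPM (246 to 292) and 108 CPM (94.7 to 123), a log2 ratio of -1.31 (-1.54 to -1.09). That log2 ratio was -0.14 without members that held a mitosis UMI at full depth (57 and 26 left). With mitosis UMIs counted at equal depth, it was -1.27 (-1.56 to -0.98) in the 222 and 216 members with fewer than 3. In the 141 and 73 members with at least 3 it was -1.53 (-1.95 to -1.14). *Bst2*, which codes for tetherin and holds virions at the cell surface, stood at 338 and 199.5 CPM (-0.76, -0.94 to -0.58). *Irf7*, the transcription factor that amplifies type I interferon production, stood at 127 and 67.6 CPM (-0.91, -1.22 to -0.61). *Rtp4* (-0.80), *Slfn8* (-0.78), *Xaf1* (-0.69), *Ifi35* (-0.67) and *Ifi213* (-0.66) made up the 9. Of the 9, *Ifi27l2a*, *Bst2*, *Irf7* and *Slfn8* stayed at least 1.5-fold lower in all 14 alternative settings. The list was not uniform. *Ifi203* stood at 353 and 300.2 CPM (-0.23), and *Ly6e*, an interferon-inducible surface protein, at 688 and 780 CPM (0.18, 0.08 to 0.28).

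The interferon stimulated genes were lower across the member population and not in a few cells alone. Members thinned to 2000 UMIs held a median of 17 UMIs of the list in PEP-WT (quartiles 11 and 25) and 10 in PEP-619WW (quartiles 7 and 14). *Isg15* was detected in 30.3% of PEP-WT members (25.6 to 35.3) and 14.9% of PEP-619WW members (10.98 to 19.5) at this depth, and in 49.7% and 33.9% unthinned. *Irf7* was detected in 23.7% and 8.997%. B cells, which express these genes themselves, held *Isg15* in 22.3% and 6.50% of barcodes. The summed list was lower in PEP-619WW in each gate examined, by log2 ratios of -0.68 in effector, -0.51 in cytokine-expressing and -0.28 in naive-like CD8 T cells, -0.67 in NK cells and -0.48 in B cells. *Ifi27l2a* alone held 3462 of the 8478 CPM of the list in PEP-WT members and 1312 of 5303 CPM in PEP-619WW members. In cytokine-expressing CD8 T cells it held 2090 of 5316 and 919 of 3737 CPM. The sums thus depend heavily on this gene, and they were not computed without it. *Ifi27l2a* had log2 ratios of -1.19 in cytokine-expressing CD8 T cells, -1.31 in NK cells and -0.89 in B cells, and of -0.11 in naive-like CD8 T cells (-0.24 to 0.02). How much of the signal in single members came from RNA outside the cell was not tested. Genes more closely tied to interferon gamma lay near the middle of all genes, with a median log2 ratio of 0.04. Of the 10 compared, 0 were higher and 0 lower, beside 1.85% and 2.91% of all 2815 genes.

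Interferon stimulated genes carry a short element, read as GAAANNGAAA on either strand, to which the factor ISGF3 and interferon regulatory factors bind. Of the 20 listed genes with a promoter window, 11 held a match, where 3.99% of all 27025 genes with a window held one. The 250 bases before the start of *Isg15* and *Bst2* are shown as members of the 9 lower genes with such matches, in capitals. In *Isg15* (GRCm38.p6, chr4:156200819-156201068, minus strand) 3 overlapping matches begin 78, 72 and 66 bases before the start, and in *Bst2* (chr8:71537473-71537722, minus strand) 2 overlapping matches begin 130 and 124 bases before it. The window of *Irf7* held no match. A match describes the letters and does not show binding.
Isg15: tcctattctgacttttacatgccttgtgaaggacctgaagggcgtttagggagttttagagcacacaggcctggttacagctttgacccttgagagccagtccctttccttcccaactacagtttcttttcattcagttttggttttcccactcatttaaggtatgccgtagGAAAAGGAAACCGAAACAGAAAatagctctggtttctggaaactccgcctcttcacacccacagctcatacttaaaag
Bst2: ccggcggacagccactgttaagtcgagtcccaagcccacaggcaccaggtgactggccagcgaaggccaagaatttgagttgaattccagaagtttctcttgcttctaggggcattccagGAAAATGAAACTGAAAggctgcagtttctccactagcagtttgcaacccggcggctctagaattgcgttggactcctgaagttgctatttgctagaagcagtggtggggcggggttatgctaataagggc

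**Figure D3:**
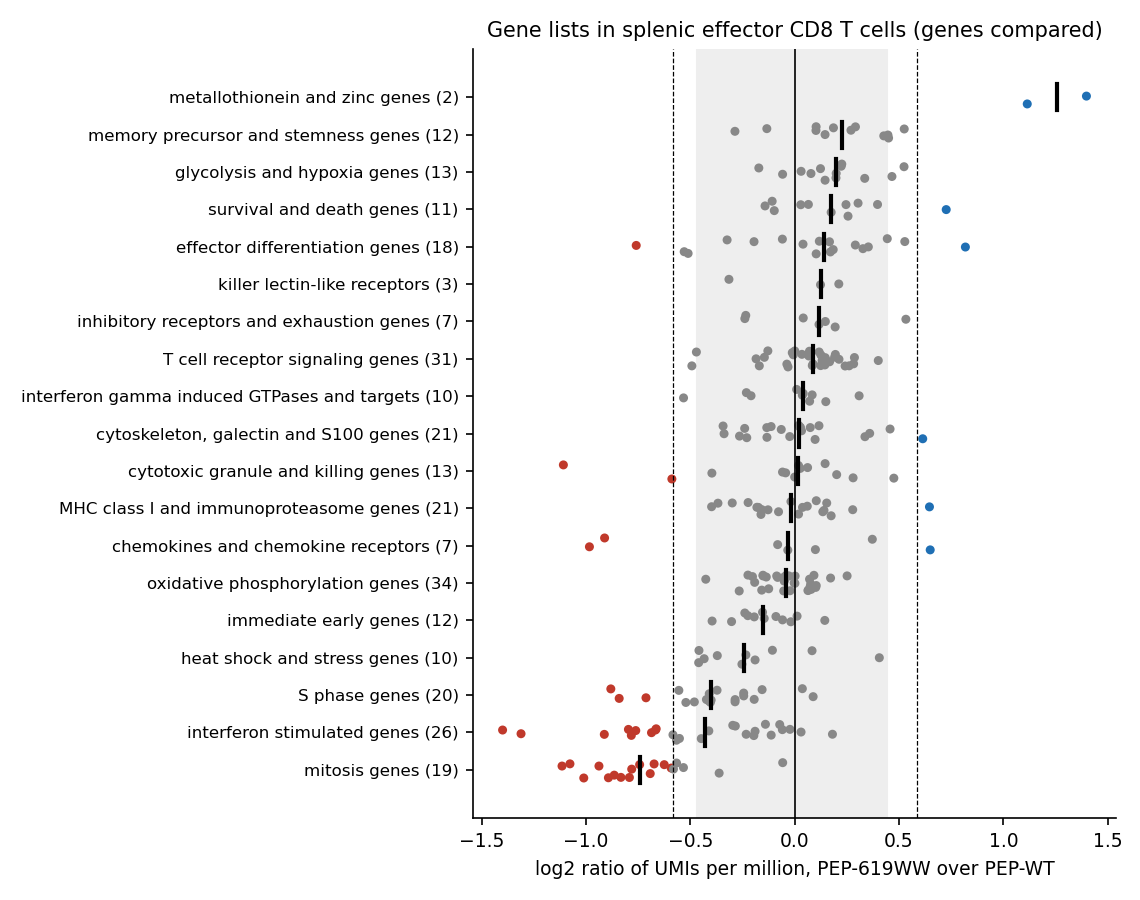
Log2 ratio of CPM, PEP-619WW over PEP-WT, of each compared gene (points) in 19 gene lists, with the number of genes in parentheses and the list median as a black bar. The gray band holds the central 90% of all 2815 genes, -0.47 to 0.44, and the dashed lines mark 1.5-fold. Mitosis genes and interferon stimulated genes lay lowest and the 2 metallothioneins highest.

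Genes of cell division were lower in PEP-619WW members. Of 19 mitosis genes compared, 0 were higher and 14 were lower, beside 1.85% and 2.91% of all 2815 genes. The median log2 ratio of the list was -0.74, and all 19 had a ratio below 1. Their summed level was 3960 CPM in PEP-WT and 2445 CPM in PEP-619WW. *Kif11*, the motor that separates spindle poles, stood at 84.8 and 39.2 CPM (-1.11, -1.51 to -0.73). *Birc5*, which codes for survivin of the chromosomal passenger complex, stood at 313 and 169 CPM (-0.89, -1.08 to -0.70). *Cdca8*, its partner borealin, stood at 152 and 75.5 CPM (-1.01, -1.29 to -0.73). *Ube2c*, the ubiquitin-conjugating enzyme of the anaphase-promoting complex, stood at 258 and 150 CPM (-0.78), and its relative *Ube2s* at 388 and 202 CPM (-0.94). The linker histone gene *Hist1h1b* stood at 627 and 317 CPM (-0.98) and the histone gene *H2afx* at 191 and 100.2 CPM (-0.93). The proliferation marker *Mki67* stood at 312 and 216 CPM (-0.53), short of 1.5-fold.

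S phase genes differed less. Of 20 compared, 0 were higher and 3 were lower, beside 1.85% and 2.91% of all 2815 genes, with a median log2 ratio of -0.40. The 3 were *Tyms*, the thymidylate synthase (111 and 60.1 CPM, -0.88), *Pclaf*, which binds the replication clamp (351 and 196 CPM, -0.84), and *Rrm2*, a subunit of ribonucleotide reductase (122 and 74.6 CPM, -0.71). *Pcna*, the clamp itself, stood at 278 and 243 CPM (-0.19).

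Fewer PEP-619WW members held many mitosis UMIs. At 2000 UMIs per barcode, 38.8% of PEP-WT members (33.8 to 44.1) and 25.3% of PEP-619WW members (20.4 to 30.7) held at least 3 UMIs of the list, next to 7.12% and 7.66% of B cells. For at least 5 S phase UMIs the shares were 30.9% and 21.5%. A cut at 3 UMIs divides a continuous range, with 63 PEP-WT and 67 PEP-619WW members near it. Among members with at least 3 mitosis UMIs (141 and 73) the summed list stood at 7018 and 6169 CPM, a log2 ratio of -0.19, and among the rest (222 and 216) at 470 and 581 CPM. In summed UMIs, fewer dividing cells and less RNA of these genes per cell cannot be told apart. The difference was smaller in other CD8 T cells, with a log2 ratio of the sums of -0.23 in cytokine-expressing and 0.15 in naive-like cells, 0.00 in B cells and -1.42 in NK cells. The size of the mitosis difference depended on the barcodes counted. With the deeper library thinned to the depth of the other, the median log2 ratio of the list was -0.74. With every barcode thinned to 2000 UMIs before the rule was applied, it was -0.12 and 2 of the 19 genes were lower, and it was -1.12 without the deepest 10% of members of each library.

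**Figure D4:**
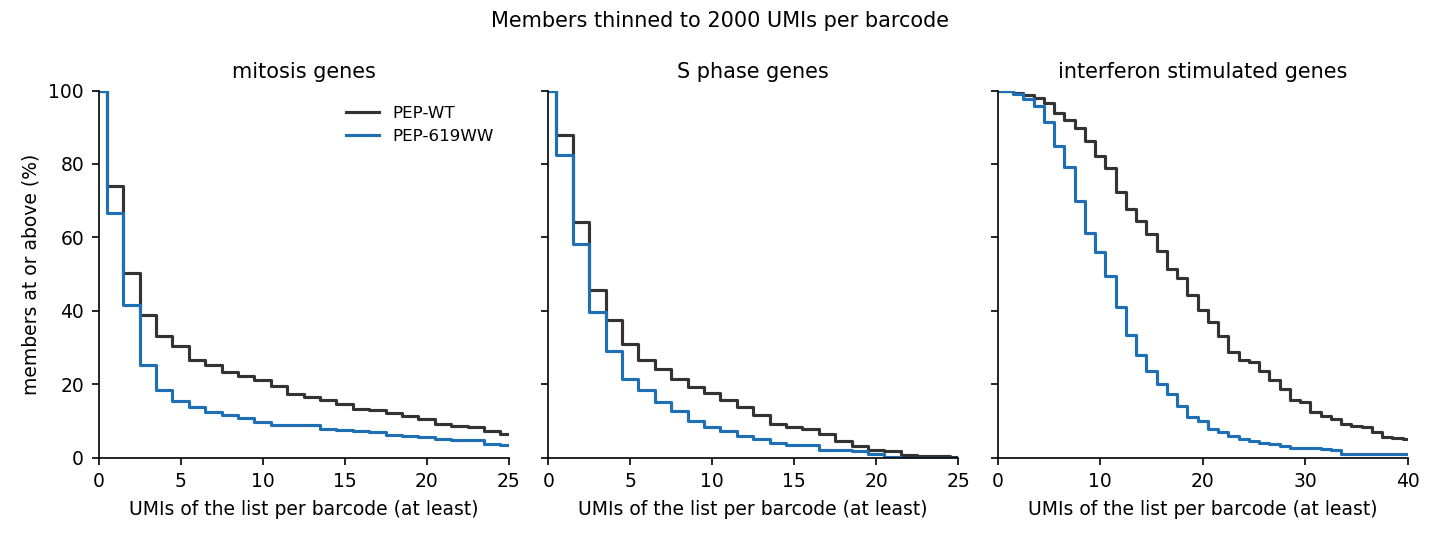
Percent of members (y axis) with at least the number of UMIs on the x axis, for the mitosis, S phase and interferon stimulated gene lists, after thinning to 2000 UMIs per barcode, in 363 PEP-WT (dark) and 289 PEP-619WW (blue) members. The PEP-WT curve lies above the PEP-619WW curve over most of each range, and the gap is widest for interferon stimulated genes, with medians of 17 and 10 UMIs.

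Genes that peak in mitosis often carry a CHR element, TTTGAA, which on either strand was found in 12 of 16 listed mitosis genes with a window, in 2 of 17 S phase genes and in 20.2% of all genes. The CCAAT box, read as CCAAT, was found in 14 of 16 mitosis genes, 13 of 17 S phase genes and 41.1% of all genes. *Ube2c* is shown as 1 of the lower genes with a CHR match in capitals, which begins 29 bases before the start (GRCm38.p6, chr2:164769679-164769928, plus strand). *Birc5* held none in its window.
Ube2c: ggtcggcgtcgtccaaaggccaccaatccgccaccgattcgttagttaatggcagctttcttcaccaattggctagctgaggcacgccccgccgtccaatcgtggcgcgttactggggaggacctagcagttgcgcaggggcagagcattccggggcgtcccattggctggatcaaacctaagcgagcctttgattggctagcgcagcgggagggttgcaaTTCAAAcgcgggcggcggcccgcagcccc

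Genes of effector and memory differentiation were mostly close. Of 18 effector differentiation genes, 1 was higher (*Il18r1*) and 1 lower, beside 1.85% and 2.91% of all 2815 genes. The median log2 ratio of the list was 0.14 (-0.03 without barcodes that held a defining marker of another cell type), with 12 ratios above 1 and 6 below. The lower gene was *Cx3cr1*, the fractalkine receptor of terminal effector cells, at 164 CPM in PEP-WT members (147 to 183) and at 96.9 CPM in PEP-619WW (84.2 to 111), a log2 ratio of -0.76 (-1.02 to -0.50). At 2000 UMIs it was detected in 26.7% (22.2 to 31.6) and 18.7% (14.4 to 23.7) of members, with B cells at 0.110% and 0.0529%, and unthinned in 39.4% and 31.8%. *Zeb2* and *Klrg1*, which mark the same terminal state, were named after their values were seen. *Zeb2* stood at 131 and 90.9 CPM (-0.53, -0.80 to -0.26) and *Klrg1* at 110.2 and 77.4 CPM (-0.51, -0.81 to -0.21), both short of 1.5-fold. Among members with at least 3 mitosis UMIs at 2000 UMIs per barcode, log2 ratios were 0.07 (-0.44 to 0.56) for *Zeb2* and -0.21 (-0.74 to 0.31) for *Klrg1*. Among those with fewer they were -0.96 and -0.77. *Ly6c2*, *Id2* and *Ly6a*, among the most abundant members of the list, stood at 2310 and 2375 CPM (0.04), 726 and 928 CPM (0.35) and 1228 and 981 CPM (-0.32). *Cx3cr1* lay the other way in cytokine-expressing CD8 T cells, at 37.1 and 52.7 CPM (0.50), and its log2 ratio in the members was -0.54 without the limit on *Xcl1*, *Ifng* and *Tnfrsf9*.

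Memory precursor and stemness genes leaned slightly upward. Of 12 compared, 0 were higher or lower by 1.5-fold, beside 1.85% higher and 2.91% lower of all 2815 genes. A ratio above 1 was found for 10. The median log2 ratio was 0.23, though it was -0.14 without members that held a mitosis UMI. *Klf2*, a factor that keeps T cells circulating, stood at 695 and 634 CPM (-0.13), and *Ltb*, lymphotoxin beta, at 224 and 269 CPM (0.27). *Il7r*, the IL-7 receptor chain of memory precursors, was named after its values were seen. It stood at 56.4 CPM in PEP-WT members (46.5 to 67.8) and at 81.1 CPM in PEP-619WW (69.5 to 94.1), a log2 ratio of 0.52 (0.18 to 0.88), and was detected in 6.61% and 11.8% of members at 2000 UMIs (B cells 1.43% and 3.38%). Alternatives moved the *Il7r* ratio between -0.42 and 1.61, and 12 of 14 kept its direction. In members with a *Gzma* UMI it was 1.08 (0.50 to 1.68), and in members without 0.02 (-0.42 to 0.48). Of 7 inhibitory receptor and exhaustion genes, 0 were apart, beside the same shares of all genes, and the median was 0.12. *Pdcd1*, which codes for PD-1, stood at 77.3 and 65.7 CPM (-0.23, -0.57 to 0.10), *Tox* at 77.8 and 84.4 CPM (0.12), and *Lag3*, the highest ratio of the list, at 129 and 187 CPM (0.53, 0.30 to 0.76). Alternatives moved the median of this list between -0.23 and 0.78, so no direction is given for it.

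Chemokine genes did not move together. Of 7 chemokine and chemokine receptor genes compared, *Ccr2* was higher and *Ccl3* and *Ccl4*, inflammatory chemokines, were lower. Over all 2815 genes the shares were 1.85% higher and 2.91% lower. *Ccl3* stood at 139 CPM in PEP-WT and 70.4 CPM in PEP-619WW (-0.98, -1.28 to -0.69), and *Ccl4* at 379 and 201 CPM (-0.91, -1.08 to -0.74). Both depended on which cells were counted. Without the limit on *Xcl1*, *Ifng* and *Tnfrsf9* their log2 ratios were 0.18 and 0.33, and with barcodes thinned to 2000 UMIs before the rule 0.85 and 0.24. The 10 richest barcodes held 46.5% and 50.2% of *Ccl4* UMIs. In cytokine-expressing CD8 T cells *Ccl4* stood at 1331 and 1916 CPM (0.53, 0.45 to 0.60). *Ccl5* stood at 17412 and 16454 CPM in the members (-0.08).

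Genes of T cell receptor signaling, the pathway on which PEP acts, were near equal, as were most genes compared. Of 31 compared, 0 were higher and 0 lower, beside 1.85% and 2.91% of all 2815 genes. The median log2 ratio of the list was 0.09. In the alternatives it lay between -0.18 and 0.14, with up to 3 genes lower and up to 4 higher. *Ptpn22* itself stood at 253 CPM in PEP-WT members (232 to 276) and at 266 CPM in PEP-619WW (245 to 289), a log2 ratio of 0.07 (-0.10 to 0.25). The mutation changes the protein and the tags lie at the 3' end of transcripts, so this level does not check the genotype. *Lck*, the kinase that starts the signal, stood at 406 and 397 CPM (-0.03), and *Zap70* at 113 CPM in both. The ends of the list were *Bcl10*, an adaptor of NF-kappaB signaling, at 70.8 and 50.3 CPM (-0.49), and the ubiquitin ligase gene *Cblb* at 103 and 136 CPM (0.40). Immediate early genes, which respond within minutes to a T cell receptor signal, had 0 of 12 genes apart, beside the same shares of all genes. Their median was -0.15, which was 0.15 without the limit on *Xcl1*, *Ifng* and *Tnfrsf9*.

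The remaining lists had medians near the middle of all genes, of which 1.85% were higher and 2.91% lower. Of 21 MHC class I and immunoproteasome genes, *H2-Q4* alone was higher (85.8 and 134 CPM, 0.65, but 0.096 with barcodes thinned to 2000 UMIs before the rule), with a list median of -0.02. Of 34 oxidative phosphorylation genes, 0 were apart (median -0.04), and of 13 glycolysis and hypoxia genes, 0 were apart (median 0.20). *Bcl2l11* alone was higher among 11 survival and death genes (median 0.17), and *Ahnak* alone among 21 cytoskeleton, galectin and S100 genes (median 0.02). Of 10 heat shock and stress genes, 0 were apart (median -0.24), and of 3 killer lectin-like receptor genes, 0 were apart (median 0.12). *Xist* was present at 845 and 955 CPM, and the Y-linked genes of the check list were at 0 in both libraries.

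MHC class II genes, which mouse T cells hardly make, were lower in PEP-619WW members. *Cd74*, the invariant chain, stood at 199 CPM in PEP-WT and 83.9 CPM in PEP-619WW (-1.24, -1.50 to -0.99), *H2-Aa* at 108 and 34.96 CPM (-1.63, -2.03 to -1.25) and *H2-Eb1* at 94.8 and 46.1 CPM (-1.04, -1.40 to -0.68). At 2000 UMIs, *Cd74* was detected in 19.3% and 14.9% of members and in 99.8% and 100% of B cells, and 54.8% and 46.7% of its member UMIs lay in 10 barcodes. The part of B cell or myeloid RNA in this difference was not tested. The log2 ratio of *H2-Eb1* was 0.08 without members that held a hemoglobin UMI.

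**Figure D5:**
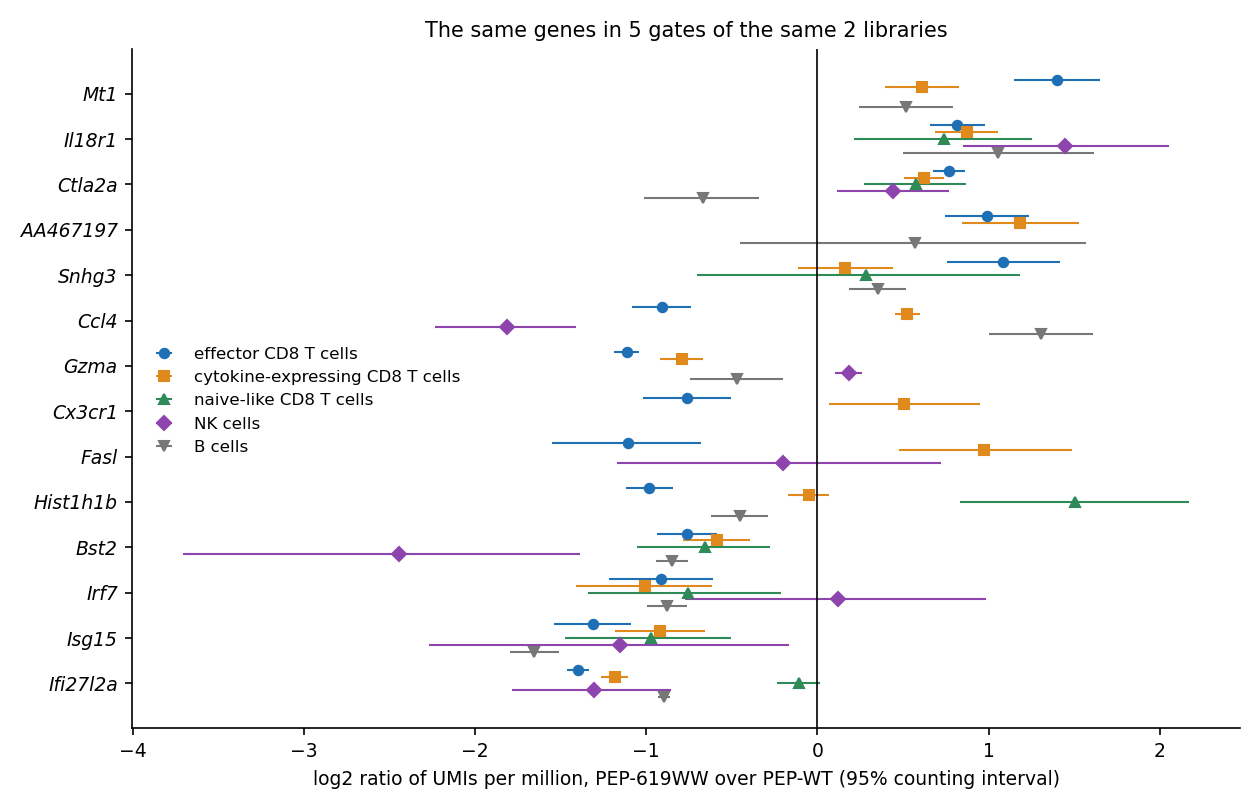
Log2 ratio of CPM, PEP-619WW over PEP-WT, of 14 genes in effector CD8 T cells and 4 other gates of the same 2 libraries, with 95% counting intervals. A gene is drawn in a gate only with at least 30 UMIs over both libraries and more than 3 in each. *Il18r1* lay above 0 and *Isg15* and *Bst2* below 0 in every gate drawn, whereas *Ccl4*, *Cx3cr1* and *Fasl* lay below 0 in effector and above 0 in cytokine-expressing CD8 T cells.

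Within each library, members with and without *Gzma* UMIs also differed in other genes. The split used *Gzma* counts and was made after the values were seen, so it is a description. PEP-WT had 219 members with and 159 without a *Gzma* UMI, and PEP-619WW had 122 and 170, at similar depth (medians of 4127 and 4520 UMIs, and of 6292 and 6432). Of 2799 genes compared, 60 were higher and 56 lower in members with *Gzma* in PEP-WT, and 77 and 80 in PEP-619WW. In both libraries 7 genes were higher and 9 lower. How many genes unrelated lists of these sizes would share was not computed. *Cx3cr1* stood at 73.0 CPM without and 231 CPM with *Gzma* in PEP-WT, and at 69.1 and 132 CPM in PEP-619WW. *Klrg1* stood at 75.4 and 136 CPM in PEP-WT, and at 46.6 and 116 CPM in PEP-619WW. *Zeb2* stood at 76.5 and 171 CPM, and at 72.4 and 114 CPM. The others higher in both were *Fbxo5*, *Hist1h2ap*, *Pclaf* and *Twf2*. On the other side were *Tox*, a factor of exhausted T cells, at 97.7 without and 63.2 CPM with *Gzma* in PEP-WT and at 127 and 29.6 CPM in PEP-619WW, and *Lag3*, at 173 and 96.9 CPM and at 232 and 129 CPM. *Irf8*, *Furin*, *Eea1*, *Ngly1*, *S100a8*, *S100a9* and *H2-Aa* were also lower in both, the last 3 being markers of other cells. The counting interval of *Eea1* and *Furin* in PEP-WT and of *H2-Aa* in PEP-619WW spanned 0.

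The differences between genotypes in summed interferon stimulated genes, *Il18r1* and *Mt1* were present on both sides of the splits by *Gzma* and by mitosis UMIs. That in *Cx3cr1* was on 1 side of each split, and that in *Cd74* on 1 side of the mitosis split. Cell division genes were lower in PEP-619WW on both sides of the *Gzma* split. With and without *Gzma*, log2 ratios were -0.76 and -0.53 for summed mitosis genes and -0.24 and -0.47 for S phase genes. The mitosis split uses the mitosis genes themselves, so it cannot show whether their difference is on both sides. The summed interferon stimulated genes had log2 ratios of -0.79 in members with *Gzma* and -0.62 in members without, and of -0.65 and -0.80 in members with at least 3 and with fewer mitosis UMIs. *Ifi27l2a* was 2.30-fold to 3.17-fold lower in PEP-619WW over the 4 classes, and *Il18r1* 1.54-fold to 1.79-fold higher. *Mt1* was 2.11-fold to 3.33-fold higher. *Gzma* was 2.68-fold lower in PEP-619WW among members with fewer than 3 mitosis UMIs and 1.75-fold lower among those with at least 3. *Cx3cr1* was less even, with a log2 ratio of -0.80 (-1.12 to -0.49) in members with *Gzma* and -0.08 (-0.57 to 0.42) in members without, and of -1.28 and 0.02 in members with few and with at least 3 mitosis UMIs. *Cd74* had a log2 ratio of -2.25 in members with few and 0.24 (-0.20 to 0.68) in members with at least 3 mitosis UMIs. Among members with few mitosis UMIs the summed mitosis and S phase genes were higher in PEP-619WW, with log2 ratios of 0.30 and 0.48. Whether these ratios differ from each other was not tested, as each rests on 1 library per genotype.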

How the data were processed

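Splenocytes of both genotypes, taken after infection, were profiled with the 10x Genomics 3' assay, 1 pooled library per genotype. The authors deposited raw UMI counts per gene and barcode, made with Cell Ranger (version 6.0.0 in the submitters' processing notes) on mm10. Each table held 32285 genes, of which 32158 were matched to a symbol. A second run per genotype was deposited and it is the run whose barcode numbers and median genes per barcode the study's quality summary gives. How the first run relates to it is not stated there. It was not compared, as 3 PEP-WT and 35 PEP-619WW barcodes met the rule.

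Members and gene lists were chosen with earlier results of these data known, so no list supports its own direction. UMIs were summed over members and divided by their total (CPM). Ratios have exact conditional 95% intervals for a pair of Poisson counts, levels exact Poisson intervals and shares exact binomial intervals, all for counting error only. The floor for a count of 0 was 3 counts. Cells were not treated as replicates, and no p-value was computed. Besides the genes of the rule, the markers, Ptpn22 and the sex-linked genes, the named genes were the 12 highest and 12 lowest by the interval bound nearest to 1, excluding immunoglobulin, T cell receptor segment and hemoglobin genes and requiring the same direction under both thinning alternatives. They also included up to 4 of each list with the most UMIs, any list gene 1.5-fold apart, and 12 genes with the largest ratio over naive-like cells. Other genes were named after their values were seen. The B cell gate took at least 3 UMIs of Cd79a and no Cd3e, and the NK gate at least 2 UMIs of Ncr1 and Klrb1c with no Cd3e or Cd8b1. Promoter windows were RefSeq sequences of GRCm38.p6. The ratio script was tested on simulated data. Alternatives changed the UMI minimum, fold, scaling, depth, the limits of the rule and which member barcodes were left out. Software was Python 3.11.15, numpy 2.4.6, pandas 2.3.3, scipy 1.17.1 and matplotlib 3.10.9. A few genes are not reported here.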

Additional observations from a re-analysis of the deposited data

Results flagged for a closer look

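In the second deposited run, which no comparison used, 35 PEP-619WW barcodes met the rule for effector CD8 T cells, above the limit of 3 that a count of 0 allows, and 3 PEP-WT barcodes did. The B cell gate took 0 PEP-WT and 459 PEP-619WW barcodes of the second run, against 5256 and 2193 of the first. The NK gate took 0 and 435, against 60 and 32. The runs thus held different mixes of cells, and the levels below are no repeat of the first run. The 35 barcodes had a median of 3855 UMIs. *Gzma* stood at 1019 CPM (882 to 1171) and *Gzmb* at 1055 CPM (915 to 1209) in them, against 1128 and 2050 CPM in PEP-619WW members of the first run. *Ifi27l2a* stood at 753 CPM (636 to 885), *Isg15* at 118 CPM (74.6 to 177) and *Mt1* at 159 CPM (108 to 225), against 1312, 108 and 234 CPM in the first run. *Il18r1* stood at 66.6 CPM (35.4 to 114), against 442 CPM in PEP-619WW and 251 CPM in PEP-WT members of the first run. *Ctla2a* stood at 614 CPM (509 to 735), against 1275 and 748 CPM. Both thus lay below the first-run levels of either genotype. The *Mt1* level lay between those of PEP-WT (88.8 CPM) and PEP-619WW in the first run. With 3 PEP-WT barcodes the genotypes could not be compared in that run.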

How the results depend on the processing

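No paired analysis was possible because each genotype has 1 library. The limits are that single library, the deeper PEP-619WW members, and the dependence of the rule on UMI counts. Of 53 named genes at least 1.5-fold apart, 41 kept their direction in each of the 14 settings that gave them a value (29 had one in all 14), and *AA467197*, *Bst2*, *Furin*, *Gm47283*, *H2-Aa*, *H2afx*, *Ifi27l2a*, *Il18r1*, *Irf7*, *Mt2* and *Slfn8* stayed at least 1.5-fold apart in each setting that gave them a value. Genes named as highest or lowest in PEP-619WW had to keep their direction under both thinning alternatives to be named as such. These alternatives are among the 14 settings, so for such genes they are no check of direction. The interferon stimulated gene median stayed between -0.54 and -0.27. The cause of the changes below was not tested. The second run gave no value, as under 50 barcodes met the rule, and the mitosis list had none without barcodes with a mitosis UMI. The 2 settings that left out members with a hemoglobin or an MHC class II UMI were chosen after seeing the data.

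The difference in the share of barcodes was 1.85 percentage points with no limit on *Xcl1*, *Ifng* and *Tnfrsf9*. It was 1.74 without members with a hemoglobin UMI. It was -0.224 without members with a defining marker of another cell type and -0.0814 without members with a mitosis UMI. The shares without such members were still taken over all barcodes. Genes higher and lower in PEP-619WW numbered 163 and 182 at 100 UMIs, 11 and 33 at 500 UMIs, 5 and 15 at 2-fold, 8 and 11 with barcodes thinned to 2000 UMIs, 8 and 24 without the markers of other types, 5 and 7 without mitosis UMIs, and 17 and 30 without MHC class II UMIs. The number of higher genes was 33 at 10 or more granzyme UMIs, 91 without the cytokine limit and 33 without the deepest 10% of members. Apart from the settings at 100 and 500 UMIs, the minimum of 200 UMIs was applied anew to the UMIs of each setting. Settings with fewer members or thinned barcodes therefore compared fewer genes. Their lower counts alone do not show that differences were lost. With barcodes thinned to 2000 UMIs, list medians were 0.78 for inhibitory receptors, 0.24 for chemokines, -0.12 for mitosis, 0.42 for glycolysis, 1.55 for metallothioneins and -0.16 for heat shock genes, and the log2 ratios of *Ccl3* (0.85), *Ccl4* (0.24), *Cenpa* (0.30), *Cenpe* (0.71), *Cdca3* (0.14), *Tpx2* (0.69) and *Ube2c* (0.10) reversed. The metallothionein median was 1.83 at 10 or more granzyme UMIs. Without the cytokine limit the medians were 0.15 for immediate early genes, 0.18 for chemokines and 0.86 for metallothioneins, with *Ccl3* at 0.18 and *Ccl4* at 0.33. Without the markers of other types they were -0.032 for effector differentiation, -0.23 for inhibitory receptors, 0.63 for metallothioneins and -0.42 for heat shock genes. The mitosis median was -1.12 without the deepest 10%. Without mitosis UMIs the medians were -0.21 for cytotoxic genes, -0.14 for memory genes, 0.22 for immediate early genes, 0.39 for glycolysis and 1.70 for metallothioneins, with *Hist1h1b* at 2.23 (1 and 3 UMIs), *Gzmk* at 0.44, *Ccl4* at 0.78 and *Rrm2* at 1.64. Without hemoglobin UMIs the medians were -0.38 for immediate early and -0.33 for heat shock genes, with *H2-Eb1* at 0.080, and without MHC class II UMIs *Slc6a6* was at -0.0062.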

Other observations

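T cell receptor beta segments were read in few members, since the 3' tags rarely reach them. A *Trbv* UMI was found in 66 PEP-WT and 75 PEP-619WW members. Among these, *Trbv12-2* led in 13.6% of PEP-WT members (exact binomial 95% interval 6.43 to 24.3) and 13.3% of PEP-619WW members (6.58 to 23.2), *Trbv13-2* in 13.6% (6.43 to 24.3) and 5.33% (1.47 to 13.1), *Trbv3* in 10.6% and 13.3%, and *Trbv19* in 7.58% and 13.3%. No segment led in more than 13.6% of the members with a *Trbv* UMI in either library.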
